A study of Mus musculus with 4 samples.

Results

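Atxn2, which encodes the RNA-binding protein ataxin 2, was examined together with its paralogue Atxn2l, the other ataxin genes Atxn1 and Atxn10, and the stress granule genes Fmr1, Fxr1, Fxr2, G3bp1, G3bp2 and Pabpc1. All 10 genes were found by symbol in the deposited table of 11160 expressed features. They filled 11 rows, because G3bp1 stood on a pair of features, and all 11 rows were among the 10959 features that passed the filter on low values. Atxn2 was chosen because its p-value in the comparison described here was among the smallest of the table, ranking 11th of all tested features. The other genes were chosen by name, with earlier results of these data known.

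The libraries came from neural progenitor cells of the dorsal telencephalon of C57BL/6J mouse embryos at embryonic day 12.5, grown as neurospheres in medium supplemented with growth factor (FGF) and insulin. There were 2 libraries labelled Mcph1 KO, from embryos with a full knockout of the microcephaly gene Mcph1, and 2 wild-type (WT) libraries, the group against which every difference is given. Cultures were pooled within genotype before expansion and RNA samples were pooled again before library preparation, so that a library is a mixture of several embryos. A p-value thus measures the spread between libraries of pooled material. Whether the 2 libraries of a genotype came from separate pools of embryos is not given here. The allele and the deleted part of Mcph1 are not stated in the labels. Reads recovered from the deposited values came to 10936719 in KO 1, 5975471 in KO 2, 7109365 in WT 1 and 22347416 in WT 2. Levels are given as scaled CPM, counts per 1000000 after the libraries were brought to a common scale. Counts over the whole Mcph1 gene do not check the knockout: Mcph1 stood at 19.5 and 20.3 CPM in KO-labelled libraries and at 21.1 and 21.6 CPM in WT, and for that reason the groups are called KO-labelled and WT.

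Stress granules are assemblies of messenger RNA and protein that form in the cytoplasm when translation initiation stalls. The G3BP proteins nucleate them, and ataxin 2, its paralogue Atxn2l, the fragile X family of RNA-binding proteins (Fmr1, Fxr1 and Fxr2) and the poly(A)-binding protein Pabpc1 are found in them. Ataxin 2 binds Pabpc1 through a short PAM2 motif and carries Lsm domains, and an expanded glutamine tract in the human protein causes a spinocerebellar ataxia. Ataxin 1 is a nuclear transcriptional co-regulator, and ataxin 10 is a cytoplasmic protein with armadillo-like repeats. They share the ataxin name with ataxin 2 through the human diseases, not through related sequence. In neural progenitors and neurons, FMRP, the product of Fmr1, is known as a repressor of translation.

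Atxn2 was higher in both KO-labelled libraries. Its levels were 55.8 CPM from 657 reads in KO 1 and 61.7 CPM from 347 reads in KO 2. In WT 1 there were 176 reads, or 24.4 CPM, and in WT 2 there were 553 reads, or 25.3 CPM. The groups did not overlap, and the libraries within each genotype lay close together: the means were 58.8 ± 4.14 CPM in KO-labelled libraries and 24.9 ± 0.603 CPM in WT (SD, n = 2 each). The 95% counting intervals, which are exact Poisson intervals of the reads and cover counting error only, began at 51.6 and 55.4 CPM in KO 1 and KO 2 and ended at 28.3 and 27.5 CPM in WT 1 and WT 2. The difference was 1.24 on the log2(value + 1) scale (SE 0.23), or 2.36-fold. This comparison chose the gene, so its values are given as a description and no test is drawn from them. Its adjusted p was 0.655 by limma, which called 0 of 10959 features (0%), at either direction and a threshold of 0.05, with 831 features (7.58%) under an unadjusted p of 0.05 (3.58% of all features higher and 4.01% lower). An estimate of 2-fold or more higher was found for 148 features (1.35%). DESeq2 and edgeR's exact test on recovered reads called 21 features (0.188%) and 20 features (0.183%), with Atxn2 among them at adjusted p = 0.0440 and 0.0354. Both p-values rest on the same libraries that chose the gene, so they are no support for its difference. Over 17 alternatives on scaled values or recovered reads the adjusted p of Atxn2 ranged from 0.0354 to 0.999 and its log2 fold change from 1.01 to 1.31. On the deposited values without scaling, where all features had a median of -1.25, the estimate of Atxn2 was -0.034.

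**Figure D1:**
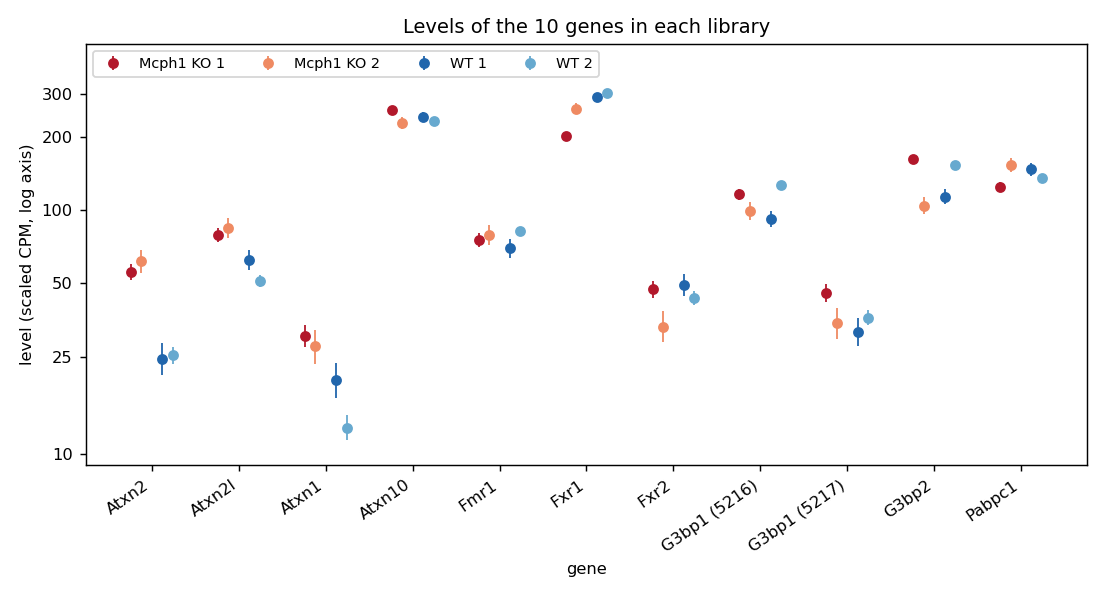
Level of each gene in scaled CPM (log axis) in the 2 KO-labelled and the 2 WT libraries, with exact Poisson 95% intervals of the recovered reads; the G3bp1 features are marked by the last digits of their identifiers. Atxn2 lies at 55.8 and 61.7 CPM in KO-labelled libraries and at 24.4 and 25.3 CPM in WT, whereas most of the other genes overlap between genotypes.

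Of the 6 analysed genes nearest to Atxn2 in the annotation, 3 on each side, Rad9b had both KO-labelled libraries above WT, as did 21.1% of all tested features. Rad9b, a paralogue of the checkpoint clamp gene Rad9a and the third gene after Atxn2, averaged 16.8 ± 3.17 CPM with the KO label and 10.4 ± 1.94 CPM in WT (SD, n = 2 each; log2 estimate 0.68, SE 0.30, adjusted p = 0.658 by limma). Brap, the nearest before it, encodes a BRCA1-associated ubiquitin ligase and stood at 39.3 and 32.9 CPM in KO-labelled libraries and at 37.5 and 35.6 CPM in WT. Aldh2, the mitochondrial aldehyde dehydrogenase gene beyond Brap on the same side, stood at 21.3 and 21.3 CPM in KO-labelled libraries and at 25.7 and 24.7 CPM in WT. The nearest after Atxn2 was Ppp1cc, a catalytic subunit of protein phosphatase 1, with 39.5 and 15.5 CPM in KO-labelled libraries and 33.6 and 72.7 CPM in WT, a wide spread within each genotype. Mapkapk5 and Pptc7 overlapped between genotypes like Brap and Ppp1cc, and both KO-labelled libraries were below WT for Aldh2, as for 20% of all tested features. Nothing is read from these patterns in 6 genes. The log2 fold changes of Brap and Aldh2 were -0.022 (SE 0.23) and -0.24 (SE 0.24), and the KO-to-WT fold of Ppp1cc was 0.501 (adjusted p = 0.672 by limma). In GENCODE M21 Sh2b3 and the antisense transcript Gm16552 overlap Atxn2 on the opposite strand, and Gm43571 and Gm42866 on the same strand. None of these was analysed here. The library kit marks strand, but whether the counting used it is not given, so reads of such partners could be counted with Atxn2.

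A promoter window of Atxn2 and one of its paralogue are shown because these were the related genes whose KO-labelled libraries both lay above WT. The sequences are the 250 bases before the first start that RefSeq lists (build GRCm38.p6), written 5′ to 3′ on the gene's strand, with capitals for matches to the searched motifs. GENCODE M21 places an Atxn2 start 22 bases before the first base shown.
Atxn2, chr5:121711359-121711608, plus strand: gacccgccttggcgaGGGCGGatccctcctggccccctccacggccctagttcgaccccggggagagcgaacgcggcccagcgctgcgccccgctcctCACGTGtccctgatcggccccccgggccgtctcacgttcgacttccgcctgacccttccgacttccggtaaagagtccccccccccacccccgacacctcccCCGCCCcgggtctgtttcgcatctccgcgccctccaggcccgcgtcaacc
Atxn2l, chr7:126503438-126503687, minus strand: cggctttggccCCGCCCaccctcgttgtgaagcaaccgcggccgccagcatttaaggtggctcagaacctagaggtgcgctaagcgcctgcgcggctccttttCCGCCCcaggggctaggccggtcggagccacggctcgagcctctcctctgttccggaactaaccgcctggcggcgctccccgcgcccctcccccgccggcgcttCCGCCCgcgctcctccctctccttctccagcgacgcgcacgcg
Both windows were rich in G and C, at 73.2% for Atxn2 and 71.6% for Atxn2l, with 29 and 32 CpG dinucleotides. The GC box GGGCGG, searched on both strands like each motif here, matched 2 times in Atxn2 and 3 times in Atxn2l. It was present in 32.7% of the 32851 RefSeq promoter windows of this length. The E box CACGTG matched 1 time in Atxn2 and 0 times in Atxn2l, with a share of 6.02% of windows. Of the other motifs searched, CCAAT (33.8% of windows), TATAAA (12.4%), TGACGTCA (1.55%) and the NRF1 core motif (0.782%) were found in neither sequence. RefSeq lists a further start for each gene, whose windows are not shown: that of Atxn2l holds CCAAT 3 times and that of Atxn2 holds TATAAA 1 time. The capitals do not overlap one another in the windows shown, and a match of letters is not evidence of a bound site. Atxn1 and Pabpc1 have no entry in the promoter table.

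Atxn2l lay higher in both KO-labelled libraries, by less than Atxn2. It stood at 78.9 and 84.4 CPM in KO-labelled libraries and at 62.2 and 51.0 CPM in WT. The groups did not overlap, and the WT libraries differed from each other more than the KO-labelled ones did. On the log2 scale the estimate was 0.53 with an SE of 0.23 (95% interval -0.019 to 1.09, limma's adjusted p = 0.658), which did not pass. The ratio of Atxn2 to Atxn2l within a library, which hardly depends on the scaling, was 0.708 in KO 1 and 0.731 in KO 2, against 0.394 in WT 1 and 0.496 in WT 2. The ratio was thus above both WT values in each KO-labelled library, with a difference of 0.70 on the log2 scale and a pooled SD within genotype of 0.17. Since Atxn2 was chosen for its p-value in this comparison, this ratio is a description.

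Atxn1 was the other member with both KO-labelled libraries above WT. It stood at 30.3 and 27.6 CPM in KO-labelled libraries and at 20.0 and 12.8 CPM in WT, from 357 and 155 reads and from 144 and 280 reads. WT 2 was the lowest library, below WT 1 by more than the KO-labelled libraries differed from each other. The log2 fold change of 0.85 (SE 0.30, 95% interval 0.13 to 1.57) did not pass (adjusted p = 0.655 by limma). It was 0.53 without WT 2. Gmpr, a guanosine monophosphate reductase gene that overlaps Atxn1 on the opposite strand, stood at 5.18 and 3.73 CPM in KO-labelled libraries and at 4.03 and 5.85 CPM in WT. Atxn10 was nearly level, at 257 and 228 CPM in KO-labelled libraries and 241 and 233 CPM in WT (log2 fold change 0.033, SE 0.22, 95% interval -0.50 to 0.57, limma's adjusted p = 0.978). The ratio of Atxn1 to Atxn10 was 0.118 in KO 1 and 0.121 in KO 2, against 0.0833 in WT 1 and 0.0554 in WT 2 (exact permutation test, two-sided, p = 0.333, the smallest that 2 against 2 allows, and 0.667 with Benjamini-Hochberg adjustment over the 4 ratios tested).

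**Figure D2:**
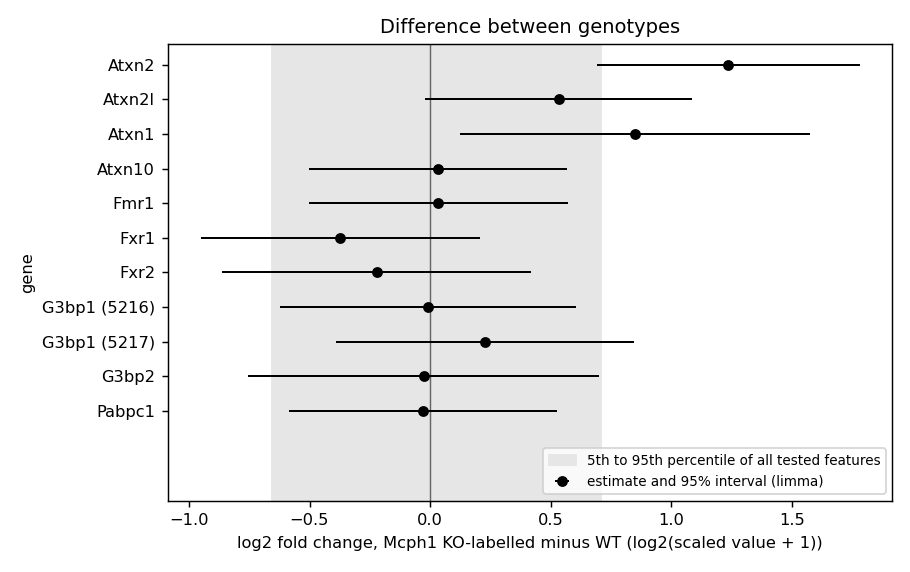
Log2 fold change of each feature, KO-labelled minus WT on the log2(scaled value + 1) scale, with 95% intervals from limma; the grey band runs from the 5th to the 95th percentile of all tested features (-0.66 to 0.71). Atxn2, chosen for its p-value in this comparison, lies at 1.24 and Atxn1 at 0.85, both above the band. The other 9 features lie within it.

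Of the fragile X family, Fxr1 lay lower in both KO-labelled libraries and Fmr1 and Fxr2 overlapped between genotypes. Fxr1 is the family member known for its role in muscle and was the most abundant of the 3 here. It stood at 201 and 260 CPM in KO-labelled libraries and at 290 and 302 CPM in WT. KO 1 was the lowest library, and KO 2 lay nearer to WT. On the log2 scale the estimate was -0.37 with an SE of 0.24 (95% interval -0.95 to 0.21, limma's adjusted p = 0.705), and -0.19 without KO 1. Dnajc19, a gene of a mitochondrial import protein that overlaps Fxr1 on the opposite strand, stood at 43.8 and 31.3 CPM in KO-labelled libraries and at 44.4 and 42.7 CPM in WT, so its own level was a fraction of that of Fxr1. Fmr1 stood at 75.2 and 79.3 CPM in KO-labelled libraries, inside the range of 69.7 and 81.7 CPM set by the WT libraries (log2 fold change 0.034, SE 0.22, 95% interval -0.50 to 0.57, limma's adjusted p = 0.977). Fxr2 stood at 47.2 and 33.2 CPM in KO-labelled libraries and at 49.1 and 43.5 CPM in WT (-0.22, SE 0.27, 95% interval -0.86 to 0.42, limma's adjusted p = 0.821). Its estimate rested on KO 2, which was the lowest library, and was 0.021 without it.

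Within libraries, Fmr1 amounted to 0.374 and 0.305 of Fxr1 in KO-labelled libraries and to 0.240 and 0.271 in WT, so the ratio was higher in each KO-labelled library (difference 0.41 on the log2 scale, pooled SD 0.17). The exact permutation test of this ratio gave p = 0.333, two-sided, the smallest possible with n = 2 against 2, and 0.667 adjusted over 4 ratios. For Fxr2 to Fxr1 the ratios were 0.235 and 0.128 in KO-labelled libraries and 0.169 and 0.145 in WT, with the KO-labelled values on either side of WT (exact permutation p = 1, two-sided).

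The stress granule nucleator G3bp2 and the main feature of its relative G3bp1 differed between libraries of the same genotype more than between genotypes. G3bp2 stood at 161 and 104 CPM in KO-labelled libraries and at 114 and 154 CPM in WT. KO 1 and WT 2 were thus high and KO 2 and WT 1 low, and the groups overlapped. On the log2 scale the estimate was -0.027 with an SE of 0.30 (95% interval -0.75 to 0.70, limma's adjusted p = 0.986), while KO 1 exceeded KO 2 by 0.63 and WT 2 exceeded WT 1 by 0.44 on the log2 scale. The main G3bp1 feature, GSMG0005216, had the same high and low libraries, at 116 and 98.8 CPM in KO-labelled libraries and 92.2 and 126 CPM in WT (-0.0089, SE 0.25, adjusted p = 0.995 by limma). The smaller feature GSMG0005217 stood at 45.5 and 34.3 CPM in KO-labelled libraries and at 31.5 and 36.1 CPM in WT (0.23, SE 0.26, adjusted p = 0.813 by limma). Which part of the gene each feature counts is not given. Their sum had a log2 estimate of 0.051 (SE 0.25, 95% interval -0.55 to 0.66, limma's adjusted p = 0.968). The ratio of this sum to G3bp2 was 1.00 and 1.28 in KO-labelled libraries and 1.09 and 1.06 in WT (exact permutation p = 1, two-sided). KO 1 and WT 2 were also the libraries with the most recovered reads, and the part of depth in this pattern was not tested.

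Pabpc1, which coats the poly(A) tails of messenger RNA and is the partner of the PAM2 motif of ataxin 2, was nearly level. It stood at 124 and 154 CPM in KO-labelled libraries and at 147 and 135 CPM in WT. The KO-labelled libraries lay on either side of WT. On the log2 scale the estimate was -0.029 with an SE of 0.23 (95% interval -0.58 to 0.53, limma's adjusted p = 0.982). The intervals of Atxn10 and Fmr1 reached 0.57 on the log2 scale and that of Pabpc1 reached -0.58. With 2 libraries a group, differences up to these sizes in those directions were thus not excluded for these genes.

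**Figure D3:**
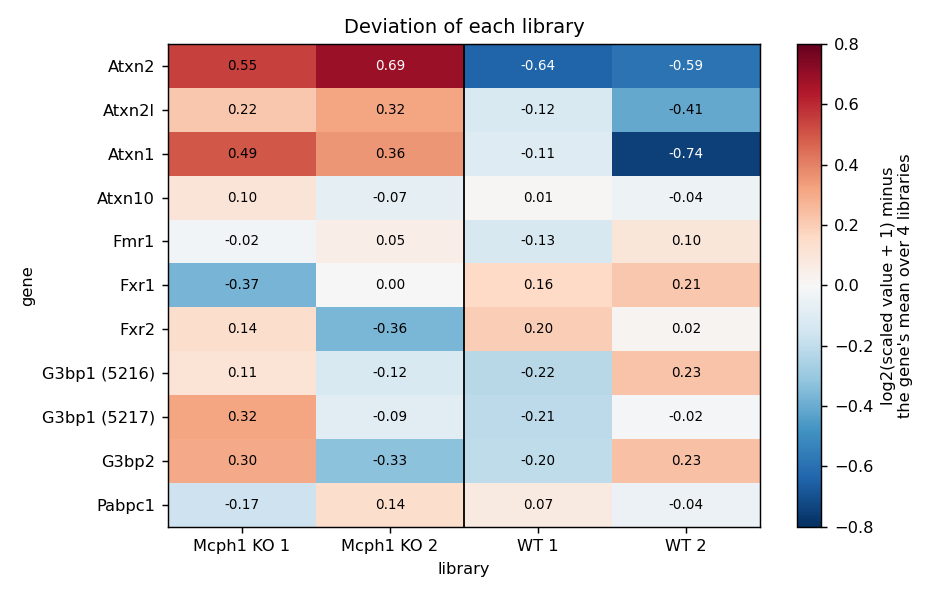
Deviation of each library from the gene's mean over the 4 libraries, in log2(scaled value + 1), with KO-labelled libraries left of the line and WT right of it. Atxn2, Atxn2l and Atxn1 are above 0 in both KO-labelled libraries, and G3bp2 and the main G3bp1 feature are above 0 in KO 1 and WT 2.

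Counting the members, 0 of 11 features were called by limma, which called 0% of all features tested. Both KO-labelled libraries lay above both WT libraries in 3 features (Atxn2, Atxn2l and Atxn1), against 21.1% of all tested features, and below both in 1 (Fxr1), against 20%. Either pattern was found for 41.2% of all tested features. Since Atxn2 was chosen on this contrast, nothing is read from these counts. Across the table the log2 fold change was larger for longer transcripts. Its median was -0.041 for features with transcripts of 2000 to 3000 bases, 0.051 for 4000 to 5000 bases and 0.18 for 6000 bases and over. The median deviation from a feature's own mean was -0.25 at 500 to 1000 bases and 0.15 at 6000 and over in KO 1. The same classes had -0.012 and 0.020 in KO 2, 0.071 and -0.065 in WT 1 and 0.17 and -0.098 in WT 2. The longest coding transcript in GENCODE M21 is 4472 bases for Atxn2, 4023 for Atxn2l and 10569 for Atxn1. Fmr1 (4409 bases, 39.2% GC, 0.034), G3bp2 (4232 bases, 43.0% GC, -0.027) and G3bp1 (6703 bases, 48.9% GC, -0.0089 and 0.23) overlapped between genotypes. They are not matched in length and GC content to Atxn2 (54.7% GC), Atxn2l (57.2%) and Atxn1 (47.9%). The part of length and GC content in the differences of single genes was not tested. After adjustment for transcript length and GC content, the estimates were 1.01 for Atxn2, 0.31 for Atxn2l and 0.55 for Atxn1, and that of Fxr1 was -0.22.

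**Figure D4:**
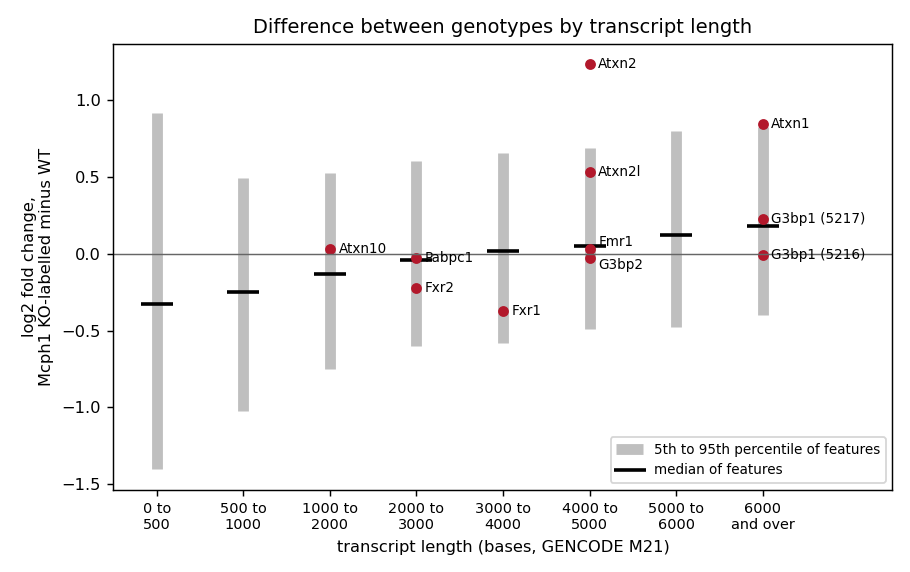
Log2 fold change, KO-labelled minus WT, by transcript length in bases: black marks are medians and grey bars the 5th to 95th percentile of the features in each length class, and red points are the named features. The medians go from -0.32 under 500 bases to 0.18 at 6000 bases and over. Atxn2 at 1.24 lies above the bar of its class, which ends at 0.69. Since Atxn2 was chosen on this contrast, nothing is read from its place.

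Per 1000 bases of transcript, the order of the levels was nearly the same in both genotypes. G3bp1 is left out of this order because its reads are split over a pair of features. Atxn10 was the most abundant, with 125 ± 10.5 CPM per 1000 bases in KO-labelled libraries and 122 ± 2.98 in WT (SD, n = 2 each). Fxr1 came next with 76.5 ± 13.8 in KO-labelled libraries and 98.2 ± 2.62 in WT, before Pabpc1 with 49.3 ± 7.34 and 50.1 ± 2.91 and G3bp2 with 31.4 ± 9.56 and 31.6 ± 6.70 in the same order of groups. These 4 genes kept the same places in both genotypes. Below them, in KO-labelled libraries, came Atxn2l (20.3 ± 0.980), Fmr1 (17.5 ± 0.654), Fxr2 (13.6 ± 3.36) and Atxn2 (13.1 ± 0.925 CPM per 1000 bases). In WT the order was Fmr1 (17.2 ± 1.92), Fxr2 (15.7 ± 1.34), Atxn2l (14.1 ± 1.96) and Atxn2 (5.56 ± 0.135 CPM per 1000 bases). Atxn2 lay between the Fxr2 values of KO 1 and KO 2, whereas in WT the level of Atxn2 lay below that of every other gene but Atxn1. Atxn1 was the lowest in both, with 2.74 ± 0.186 in KO-labelled libraries and 1.55 ± 0.481 CPM per 1000 bases in WT.

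The analysed genes with a proper symbol whose profile over the 4 libraries was closest to that of Atxn2 included Spred2, Fam168b, Pygo1 and Pcdhb22. Closeness was the Euclidean distance between log2(scaled value + 1) profiles, each centred on its own mean, and ran from 0.163 for Spred2 to 0.295 for Pcdhb22 among these 4. Spred2, an inhibitor of Ras signalling, stood at 6.46 and 7.11 CPM in KO-labelled libraries and at 3.19 and 3.06 CPM in WT. Fam168b, a membrane protein of neurons, stood at 76.3 and 82.7 CPM in KO-labelled libraries and at 30.4 and 39.3 CPM in WT. Pygo1, a Wnt pathway co-activator, stood at 28.0 and 26.3 CPM in KO-labelled libraries and at 12.8 and 13.9 CPM in WT. All were picked for this likeness, so their differences are no finding. Pcdhb22, a clustered protocadherin, stood at 23.3 and 21.7 CPM in KO-labelled libraries and at 10.8 and 11.6 CPM in WT. Of the members, Atxn1 (distance 0.653) and Atxn2l (0.742) were the nearest to Atxn2, and Fxr1 (1.62) the farthest.

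Among other RNA-binding proteins of stress granules, estimates went both ways and 0 of 38 features were called. There were 17 higher and 21 lower estimates, with a median log2 fold change of -0.091, against a median of 0.012 and 51.4% higher over all tested features. Both KO-labelled libraries lay above WT in 8 features and below it in 9, near the shares over the table (21.1% and 20% of all tested features). Tia1, an RNA-binding protein that promotes granule assembly, stood at 111 and 74.7 CPM in KO-labelled libraries and at 91.6 and 117 CPM in WT. Caprin1, a G3BP partner needed for granules, stood at 801 and 654 CPM in KO-labelled libraries and at 696 and 917 CPM in WT. In Tia1 and Caprin1, KO 1 and WT 2 were again the high libraries, as in G3bp2. Tial1, the relative of Tia1, had a log2 estimate of -0.40 (SE 0.23), and Usp10, a deubiquitinase that binds G3BP and opposes granule formation, one of 0.24 (SE 0.22), with adjusted p of 0.675 and 0.771 by limma. The list's median was 0.016 without KO 2 and 0.013 without WT 2.

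Among the partners of poly(A)-binding protein, 0 of 21 features were called, with 12 higher and 9 lower estimates and a median of 0.051. Pabpc4, a further cytoplasmic relative of Pabpc1, had an estimate of -0.34 (SE 0.25), and Paip1, a translational co-activator that binds Pabpc1, one of -0.47 (SE 0.23). Paip2, a repressor of Pabpc1, stood at 235 and 280 CPM in KO-labelled libraries and at 221 and 257 CPM in WT (0.11, SE 0.23), and the nuclear poly(A)-binding protein Pabpn1 at 0.078 (SE 0.24). Adjusted p-values of these 4 genes by limma lay between 0.666 and 0.941. Unadjusted p-values under 0.05 were found for Larp1, a binder of messenger RNA for ribosomal proteins (0.75, SE 0.26), and for the cap-binding factor Eif4e (-0.58, SE 0.21), both named after their values were seen. Of all tested features, 3.58% were higher and 4.01% lower under that p. The list's median was -0.027 without KO 2 and -0.0023 without WT 1.

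P-body and decapping genes, which act where messenger RNA is silenced and degraded, had 17 higher and 7 lower estimates, and 0 of 24 features were called. Their median log2 fold change was 0.22, and both KO-labelled libraries lay above WT in 11 features and below it in 2 (21.1% and 20% of all tested features). The helicase Ddx6, a partner of ataxin 2, stood at 220 and 190 CPM in KO-labelled libraries and at 139 and 202 CPM in WT (0.29, SE 0.27). Lsm12, a binding partner of ataxin 2, had a log2 estimate of 0.16 (SE 0.22), Lsm14a, which takes part in P-body assembly, one of 0.26 (SE 0.22) and its relative Lsm14b one of -0.30 (SE 0.35), with adjusted p-values of 0.762 to 0.841 by limma. Unadjusted p-values under 0.05 were found for 4 genes of the list, all higher, and these are named after their values were seen: Dcp1a, a decapping activator (0.77, SE 0.25), Eif4enif1, which carries eIF4E into P-bodies (0.74, SE 0.23), and the Argonaute-binding proteins Tnrc6b (0.89, SE 0.29) and Tnrc6c (0.85, SE 0.34). Such higher values made up 3.58% of all tested features. After adjustment for transcript length and GC content, the list's median was 0.096.

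The CCR4-NOT complex, the main deadenylase of the cell, had 7 higher and 5 lower estimates among 12 features, 0 called, and a median of 0.027, which was 0.19 without KO 2 and 0.18 without WT 2. Its scaffold Cnot1 stood at 176 and 167 CPM in KO-labelled libraries and at 119 and 162 CPM in WT (0.30, SE 0.25). Cnot2 had a log2 estimate of -0.27 (SE 0.27), Cnot3 one of 0.42 (SE 0.24) and the ubiquitin ligase Cnot4 one of 0.29 (SE 0.22). Of the 8 FMRP partners, 2 were higher, 6 lower and 0 called (median -0.073, and 0.019 without WT 2). Cyfip1, a partner of FMRP and of the WAVE complex, stood at 88.6 and 117 CPM in KO-labelled libraries and at 107 and 109 CPM in WT (-0.088, SE 0.24), and its relative Cyfip2 had a log2 estimate of 0.35 (SE 0.31). The FMRP-interacting proteins Nufip1 and Nufip2 had -0.18 (SE 0.22) and -0.029 (SE 0.23). Adjusted p-values of these 8 named genes by limma lay between 0.675 and 0.982.

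Other genes of ataxin name or of polyglutamine disease had 8 higher and 1 lower estimate among 9 features, with 0 called and a median log2 fold change of 0.42. Both KO-labelled libraries lay above WT in 5 of them and below it in 0 (21.1% and 20% of all tested features). Without KO 1 there were 5 higher and 4 lower estimates. Unadjusted p-values under 0.05 were found for the TATA-binding protein gene Tbp (0.71, SE 0.24) and the co-repressor Rere (0.57, SE 0.23), named after their values were seen. Higher estimates under that p made up 3.58% of all tested features. After adjustment for transcript length and GC content the median was 0.058. Atxn7, a subunit of the SAGA complex, stood at 26.4 and 34.7 CPM in KO-labelled libraries and at 24.3 and 15.6 CPM in WT (0.63, SE 0.31). Atxn3, a deubiquitinase and the gene of Machado-Joseph disease, stood at 21.7 and 17.2 CPM in KO-labelled libraries and at 19.3 and 27.0 CPM in WT (-0.24, SE 0.29). Atxn7l3 and Atxn7l3b had log2 fold changes of 0.24 (SE 0.37) and 0.021 (SE 0.30), and adjusted p-values of these 4 genes lay between 0.669 and 0.990 by limma. The last list holds eIF2, the initiation factor whose phosphorylation sets off granule formation, with its kinases and phosphatase subunits, and had 6 higher and 3 lower estimates among 9, 0 called (median 0.17). The 6 higher were the kinases and phosphatase subunits, and the 3 lower were the subunits of eIF2 itself, a split seen after the values. It was not stable: 7 were higher and 2 lower without KO 1, without WT 1 and after adjustment for length and GC content. Both KO-labelled libraries lay above WT in 3 features of this list and below it in 2 (21.1% and 20% of all tested features). Eif2s3x, the gamma subunit, stood at 177 and 182 CPM in KO-labelled libraries and at 364 and 339 CPM in WT (-0.96, SE 0.22, adjusted p = 0.655 by limma), the only gene of the list under an unadjusted p of 0.05, named like Eif2s1 and Eif2s2 after its values were seen. It has a closely similar copy on the Y chromosome, with which reads may be shared, so its level is uncertain. The sex of the pooled embryos is not given here, and its part in this difference was not tested. Lower estimates under that unadjusted p made up 4.01% of all tested features. Eif2s1 and Eif2s2, the alpha and beta subunits, had -0.45 (SE 0.22) and -0.12 (SE 0.30). The kinase Eif2ak1 had a log2 estimate of 0.11 (SE 0.22), the interferon-inducible Eif2ak2 0.52 (SE 0.36), the endoplasmic reticulum stress kinase Eif2ak3 0.17 (SE 0.22) and the amino acid sensor Eif2ak4 0.37 (SE 0.22), with adjusted p-values between 0.685 and 0.902 by limma. After that adjustment the list's median was 0.045.

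**Figure D5:**
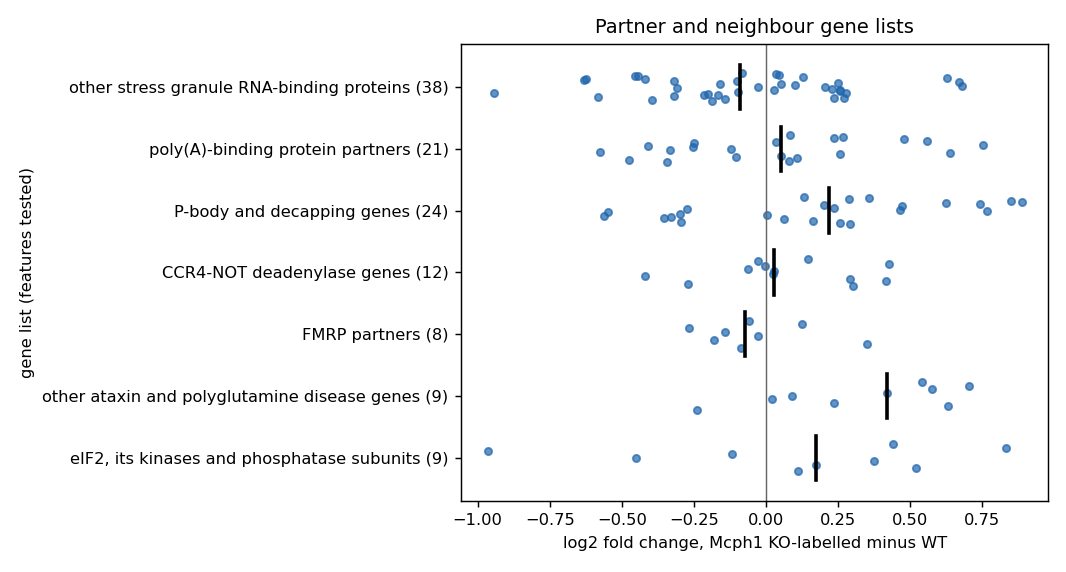
Log2 fold change, KO-labelled minus WT, of every tested feature (points) in 7 gene lists, with the median of each list as a black bar and the number of features in brackets. Medians lie between -0.091 for other stress granule proteins and 0.42 for other ataxin and polyglutamine disease genes, and 0 features were called in each list.

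Cell type markers differed between the KO-labelled libraries. The summed level of 12 analysed neuron markers of 15 listed was 2110 CPM for KO 1 and 898 CPM for KO 2, with 961 and 1136 CPM in WT. The median over these markers of the log2 deviation from a marker's own mean was high in KO 1 alone. It was 1.29 in KO 1, -0.47 in KO 2, -0.26 in WT 1 and -0.37 in WT 2. Atxn2 was at least as high in KO 2 as in KO 1, and its log2 fold change was 1.31 without KO 1 and 1.16 without KO 2. The G3bp genes and Tia1 were higher in KO 1 than in KO 2, as the neuron markers were. The part of the cell mixture in the levels of Atxn2, the G3bp genes and Tia1 was not tested. The 12 radial glia and progenitor markers, all present, summed to 6414 and 9141 CPM in KO-labelled libraries and to 13020 and 13333 CPM in WT. Single markers went both ways, with 6 higher and 6 lower and a median of -0.099, and most of the sum came from Fabp7, Vim and Nes: Fabp7 alone stood at 2020 and 2263 CPM in KO-labelled libraries and at 5307 and 5387 CPM in WT. The 4 astrocyte markers summed to 538 and 987 CPM in KO-labelled libraries and to 1511 and 645 CPM in WT, and the 5 of the oligodendrocyte lineage to 334 and 681 CPM in KO-labelled libraries and to 726 and 861 CPM in WT. The neuron markers Rbfox3, Neurod1 and Nefm and the microglia, blood, endothelial and mesenchymal markers were not analysed here. In pools of cells, fewer cells of a type and less RNA per cell cannot be told apart.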

How the data were processed

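RNA was sequenced with a strand-specific kit after ribosomal RNA depletion, with 4 libraries in 1 lane, per the labels' protocols. Per the submitters' processing notes the authors used STAR 2.3.0, SAMtools 0.1.19, DESeq 1.12.1, FastQC 0.10.1 and Picard 1.119. For the build, annotation, counting rule and filter behind the table, nothing is given in the sources used here. Each deposited value is a signal, a read count that the authors divided by 1 factor per library: 100% of values were whole multiples of a library's step within 0.01 of a step, which gave back the reads. The lowest value of WT 2 equalled 2 steps, so that library's step came from the spacing of its values. As deposited, the libraries are not on a common scale.

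TMM factors from edgeR 4.0.16 scaled the values, and its filterByExpr (minimum count 10) chose the features to test. The main test was limma 3.58.1 with a trended prior on log2(scaled value + 1), run under R 4.3.3. It was two-sided, and p-values were adjusted by Benjamini-Hochberg over 10959 features at a threshold of 0.05. Such fold changes understate changes of low genes. Scaled CPM divide by the mean scaled total. The functions were tested on simulated data. Alternatives were other scalings, filters, pseudocounts and tests (limma-voom, edgeR's quasi-likelihood and exact tests and DESeq2 1.42.0 on the recovered reads), the replicate number as a block, omission of each library, omission of ribosomal protein, histone and mitochondrial genes, and adjustment of fold changes for length and GC content (both known for 85.6% of tested features, by symbol in GENCODE M21). Named genes are the members, Mcph1, the first 4 analysed genes of each list in the order written by role, and the 5 genes closest in profile to Atxn2, of which 1 is not reported here. The members and lists were chosen with earlier results of these data known.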

Additional observations from a re-analysis of the deposited data

How the results depend on the processing

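The count of called features was 0 under every alternative but 5: limma called 6 on the deposited values without scaling, 25 without KO 1 and 179 without KO 2, edgeR's exact test called 20 and DESeq2 called 21. Leaving out each library in turn, the count ran from 0 to 179. In such fits 1 group has a single library, which is assumed to vary like the 2 libraries of the other group, so these counts have little support. Atxn2 apart, which was chosen on this contrast and whose calls are no support, no member was called under any alternative. The log2 fold change of Atxn2 was -0.034 without scaling, where the median of all features was -1.25, 1.01 with the length and GC trend removed, and between 1.16 and 1.31 with 1 library left out. Without scaling, Atxn2l (-0.74), Atxn1 (-0.42), Atxn10 (-1.24), Fmr1 (-1.24) and the smaller G3bp1 feature (-1.04) also turned below 0, each relative to that shift. Estimates near 0 changed sign elsewhere: upper-quartile scaling gave 0.032 for the main G3bp1 feature, 0.014 for G3bp2 and 0.012 for Pabpc1, and removal of the length and GC trend gave 0.032 for G3bp2 and 0.023 for Pabpc1. With 1 library left out, the estimates ran from -0.053 to 0.11 for Atxn10, from -0.081 to 0.15 for Fmr1, from -0.48 to 0.021 for Fxr2, from -0.23 to 0.22 for the main G3bp1 feature, from -0.34 to 0.28 for G3bp2 and from -0.19 to 0.12 for Pabpc1. The cause was not tested. Within-library ratios moved by less than their SD with a pseudocount of 10. The replicate numbers are not stated to pair samples, and deviations of same-numbered libraries had a correlation of -0.31 across features; with the number as a block limma called 0 features, the log2 fold change of Atxn2 was 1.24, and the crossed pairing, like the summed G3bp1 features chosen after seeing the data, called 0. With 2 libraries a group, the 95% interval of a gene as level as Atxn10 ran from -0.50 to 0.57.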
